A study of Mus musculus with 8 samples.

Results

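The genes described here encode the machinery by which cells hold on to the matrix around them: fibronectin, 25 integrin chains, the talins and kindlins that switch integrins on, and 4 core proteins of focal adhesions. They were taken by gene name from a fixed list, and all 34 names were found once each among the 35275 genes of the count table. An integrin is a pair of 1 alpha and 1 beta chain that spans the cell membrane and binds matrix proteins or other cells on the outside. Talin and kindlin bind the beta chain's tail on the inside, which opens the receptor, and vinculin, paxillin, focal adhesion kinase and integrin-linked kinase then join the complex and couple it to actin. Merlin, the product of Nf2, is a membrane-cytoskeleton protein with known links to adhesion signalling, and the p21-activated kinases act on actin and adhesions downstream of Rac and Cdc42.

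The tumours came from a conditional mouse model of mesothelioma, in which adenovirus carrying Cre recombinase was injected into the peritoneal cavity. Every animal carried floxed Nf2 and floxed Cdkn2a, which the labels describe as deleted in all 8 tumours. The 3 wild-type tumours (19, 20 and 127) had Pak2 wt, and the 4 primary tumours 13, 14A, 59 and 61 had Pak2 f/f, described as Pak2 -/-. Tumour 14B has the same genotype and is labelled a secondary tumour. The labels give no strain, sex, age or time after injection, and they name no promoter that would restrict Cre to one cell type. They do not say that tumours came from separate mice, so p-values measure the spread between these samples, which may be partly technical. Bulk RNA was sequenced from whole tumours, in which fewer cells of a type and less RNA per cell cannot be told apart.

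Levels are read counts relative to library size (CPM), scaled with TMM factors. Library totals ran from 13469851 counts in tumour 14B to 20402401 in tumour 14A. The library size behind CPM took in only the genes tested between genotypes, which held 11141192 counts in 14B and 19667212 in 14A. On this scale 3 counts, the most that a count of 0 allows, equal 0.139 to 0.193 CPM in the primary tumours and 0.311 CPM in 14B. These floors and the intervals given here cover counting error only. Pak2 transcripts stood at 90.1 to 128 CPM in the wild-type tumours and at 131 to 238 CPM in the labelled Pak2-null primaries, so the count did not mirror the label, which is used as given. The log2 fold changes were 0.82 for Pak2, -0.23 for Nf2 and 0.80 for Cdkn2a. Where in each gene the deleted part lies is not given in the sources used here. The female-specific RNA Xist stood at 26.6 to 459 CPM in the wild-type tumours and at 0.0619 to 1.33 CPM in the labelled Pak2-null primaries, whereas the Y-linked Ddx3y stood at 85.4 to 104 CPM in the latter, at 116 CPM in wild-type tumour 127 and at 1.24 and 1.62 CPM in 20 and 19. Apart from tumour 127, which held both transcripts, sex and genotype cannot be told apart here. The summed level of 8 mesothelial markers, led by Krt8, Msln and Krt18, was 35.3 to 299 CPM in the wild-type and 10.3 to 358 CPM in the labelled Pak2-null primaries. Mesothelin itself (Msln) stood at only 1.11 CPM in tumour 13 and 132 CPM in tumour 61. Tumour 14A stood apart, with leukocyte markers (led by Laptm5, Ptprc and Coro1a) summing to 5026 CPM against 446 to 871 CPM in the other primaries. Its fibroblast markers (led by Col1a1, Dcn and Lum) summed to 1086 CPM against 7125 to 11971 CPM.

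None of the 33 tested genes passed the test between genotypes. The test was edgeR's quasi-likelihood fit, and adjusted p-values follow Benjamini and Hochberg across 15412 genes. It called 0 of 33, beside 11 of all tested genes (0.0714%), and the lowest adjusted p among them was 0.118, for Itga7. At an unadjusted p under 0.05 there were 7 of 33 (21.2%), beside 12.9% of all tested genes. The 3 higher ones in the tumours labelled Pak2-null were Itga5, Itga6 and Itgav (background 4.39%), and the 4 lower ones were Itga7, Itga8, Itga11 and Itgb6 (background 8.55%). DESeq2 called 5 of 33 (Itga5, Itga7, Itga8, Itga11 and Itgb6) where it called 7.46% of all genes, and limma-voom called 0. The groups did not overlap in 6 of 33 (18.2%), beside 14.0% of all genes: Itgav was higher (background 5.07%), and Itga7, Itga8, Itga11, Itgb6 and Tln2 were lower (background 8.93%). Fold changes were above 0 for 21 genes and below for 12, where 54.5% of all tested genes were above 0. Their median on the log2 scale was 0.29, beside 0.06 over all tested genes. Ilk was the 1 gene too low for the test.

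**Figure D1:**
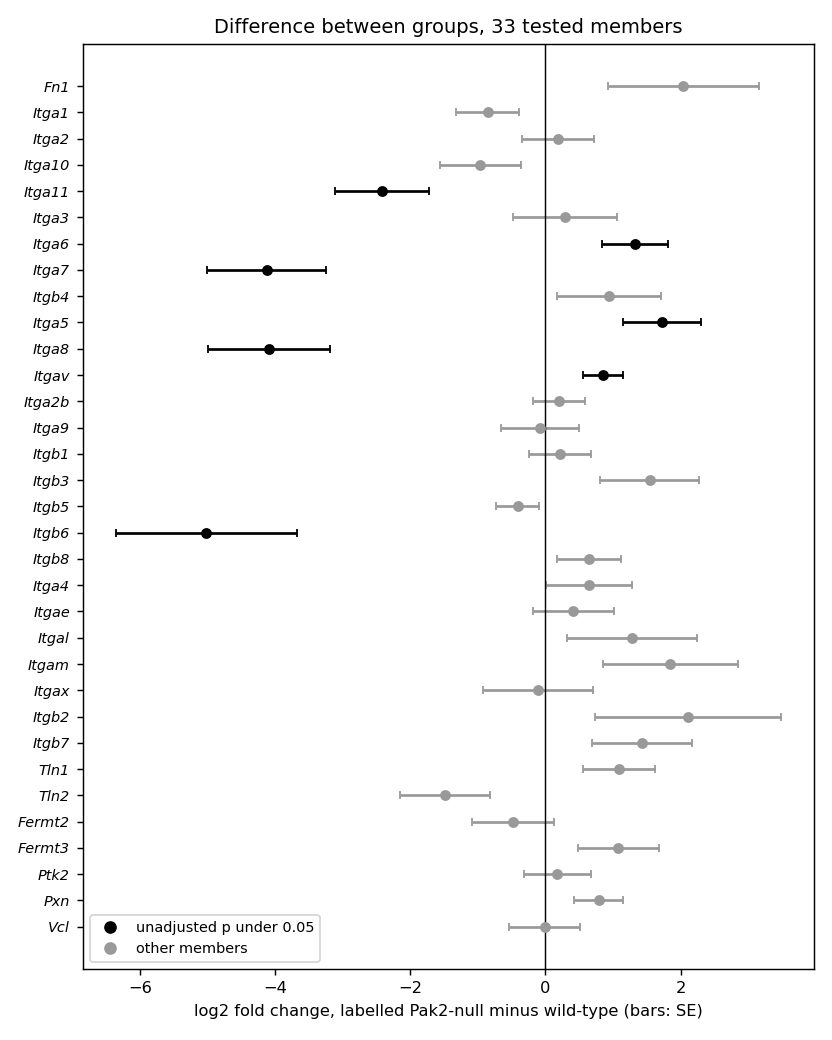
Log2 fold changes (labelled Pak2-null minus wild-type, x axis) of the 33 tested genes, with bars of 1 standard error; black points had an unadjusted p under 0.05 in edgeR. The 4 black points on the left (Itga7, Itga8, Itga11 and Itgb6) lie farther from 0 than the 3 on the right (Itga5, Itga6 and Itgav).

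These genes varied more from tumour to tumour than most. The standard deviation (SD) of log2 CPM over the 7 primary tumours exceeded 1 in 16 of 33 (48.5%), beside 28.4% of all tested genes, and its median was 0.90 beside 0.59. The widest were Itgb6 (SD 2.87), Itga7 (2.39), Itga8 (2.25), Itga11 (1.77) and Itgb2 (1.74). The narrowest were Itgb5 (0.43), Itga2b (0.44), Itgav (0.51), Itgb1 (0.54) and Pxn (0.57), which include the most abundant beta chains. Tumour 14A was the highest primary tumour for 11 genes and the lowest for 10. Tumour 13 was the highest for 8 and the lowest for 7, and wild-type tumour 127 the highest for 9 and the lowest for 5.

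**Figure D2:**
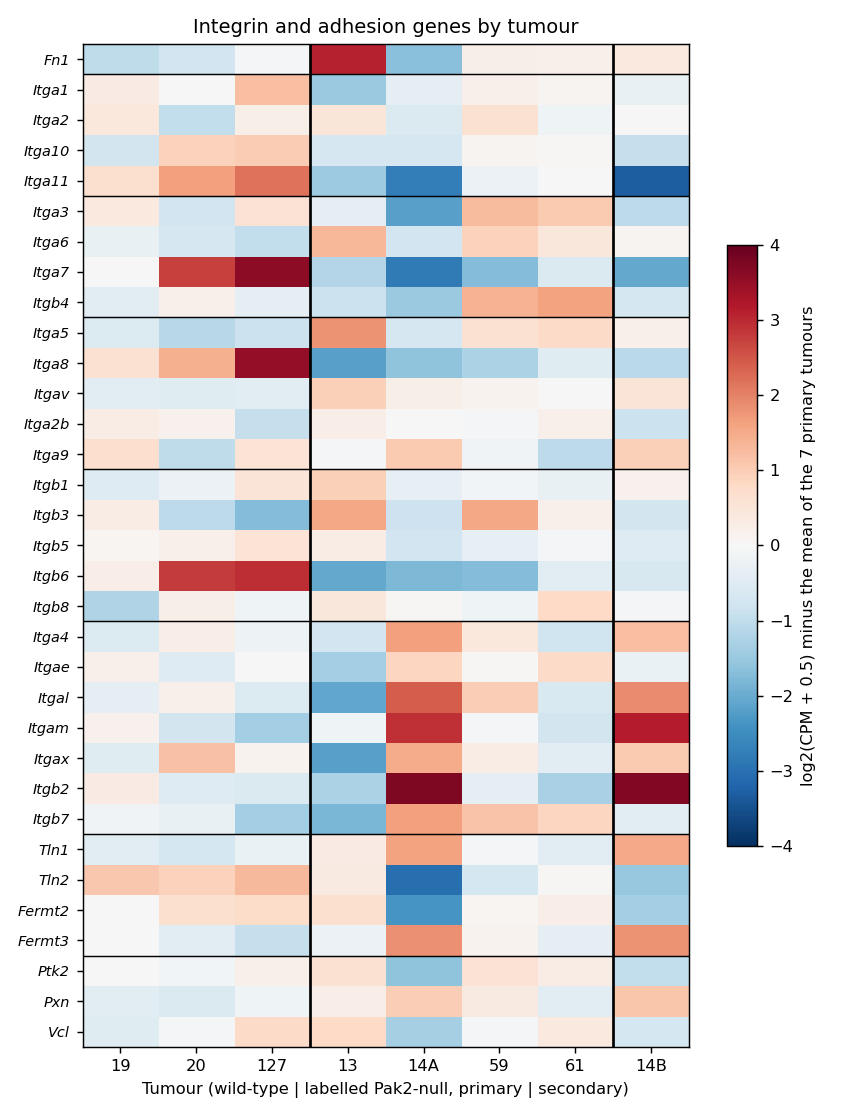
Level of each of the 33 tested genes (rows, in groups by role) in the 8 tumours (columns), as log2(CPM + 0.5) minus the gene's mean over the 7 primary tumours. Tumours 14A and 14B share high Itga4, Itgal, Itgam and Itgb2 and low Tln2 and Fermt2; Itga7, Itga8, Itga11 and Itgb6 are above their mean (red) in wild-type tumours 20 and 127.

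Per kilobase of gene length, Fn1 had the highest median over the 7 primary tumours, 548 CPM per kb, with a range from 180 to 4742. Itgb1, the partner of most alpha chains outside leukocytes, followed at 225 (183 to 516), and Itgb5, a vitronectin receptor chain that pairs with alpha V, at 105 (59.5 to 146). Tln1, Pxn and Itga5 came next, at 53.8, 53.0 and 46.4 CPM per kb. At the low end were Itgb8 (0.881), Itga10 (0.504), Itga8 (0.398) and Itgb6 (0.216). Ilk is left out of this order because its counts are in doubt. Only Itgb1 and Itgb5 were neighbours in this order whose ranges did not overlap, so the other neighbouring pairs were not separated by the spread between tumours. The lengths are those of the deposited table, and the exons annotated in GENCODE M21 cover 1.02 to 3.11 times as many bases, so this order is approximate.

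Among the 8 beta chains, Itgb1 made up 49.4, 56.8 and 66.2% of the summed level per kilobase in wild-type tumours 19, 20 and 127. It made up 74.9, 58.2 and 57.3% in tumours 13, 59 and 61, and 22.3% in tumour 14A. In 14A the leukocyte chain Itgb2 held 67.1%, against 2.86 to 16.1% in the other primary tumours. Among the alpha chains, Itga5 held the largest share in tumours 13, 59 and 61 (59.8, 39.1 and 48.9%) and also in wild-type tumour 19 (25.8%). In wild-type tumours 20 and 127 the largest share was that of the muscle laminin receptor chain Itga7 (24.8 and 32.96%), and in 14A that of the leukocyte chain Itgam (54.9%). The leading alpha chain thus differed between tumours of 1 genotype label.

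Fibronectin, the soluble and fibrillar glycoprotein that carries the RGD motif read by several integrins, was dominated by 1 tumour. Fn1 (ENSMUSG00000026193, chromosome 1, 71585520 to 71653200, minus strand, GRCm38) stood at 2325, 2776 and 4558 CPM in wild-type tumours 19, 20 and 127. It stood at 39431, 1494, 5549 and 5414 CPM in tumours 13, 14A, 59 and 61, and at 6214 CPM in 14B. Tumour 13 was thus 7.11 times as high as the next primary tumour, 14A was below every wild-type tumour, and the groups overlapped. Fn1 reads were 3.68% of all counts in tumour 13 (95% Clopper-Pearson interval 3.67 to 3.69%), where Fn1 was the most counted gene, against 0.142 to 0.605% in the other primaries. The group means were 3220 ± 1181 (SD, n = 3) and 12972 ± 17739 CPM (SD, n = 4). The log2 fold change was 2.04 (SE 1.12, adjusted p = 0.503 in edgeR), and 0.38 without tumour 13. The fibroblast markers in tumour 13 summed to 8212 CPM, within the wild-type range of 7125 to 8706 CPM.

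**Figure D3:**
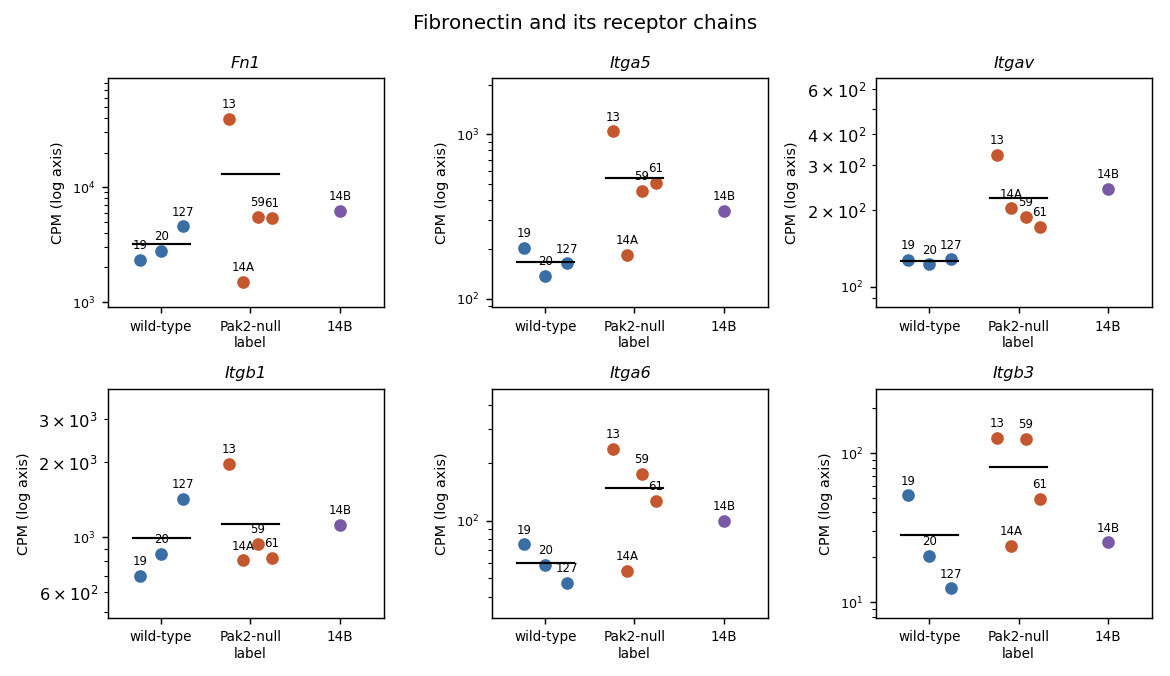
CPM (log axis) of Fn1 and 5 receptor chains in each tumour; numbers name the tumours and the short lines are group means (3 wild-type, 4 primary tumours labelled Pak2-null). Tumour 13 is the highest point in all 6 panels, and only in the Itgav panel do the 4 lie wholly above the 3 wild-type tumours.

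Itga5, whose product pairs with beta 1 as the classical fibronectin receptor, was highest in the same tumour. Its level (ENSMUSG00000000555, chromosome 15, 103344289 to 103366763, minus strand) was 203, 138 and 164 CPM in wild-type tumours 19, 20 and 127, and 1042, 185, 452 and 507 CPM in tumours 13, 14A, 59 and 61. Tumours 13, 59 and 61 were above all wild-type tumours, and 14A lay among them. The log2 fold change was 1.72 (SE 0.57, adjusted p = 0.253 in edgeR), from 1.19 without tumour 13 to 2.01 without tumour 14A. Itgav, the alpha V chain that binds vitronectin, fibronectin and latent TGF-beta, was the 1 gene higher in every tumour labelled Pak2-null. It stood (ENSMUSG00000027087, chromosome 2, 83724397 to 83806916, plus strand) at 128, 123 and 128 CPM in wild-type tumours 19, 20 and 127 and at 330, 203, 189 and 173 CPM in tumours 13, 14A, 59 and 61. Its log2 fold change was 0.85 (SE 0.29, adjusted p = 0.268 in edgeR), and it ran from 0.60 to 0.96 with any 1 tumour left out. In the secondary tumour 14B, Itga5 stood at 342 and Itgav at 243 CPM.

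The beta chains that pair with these alpha chains did not share 1 direction. Itgb1 (ENSMUSG00000025809) stood at 699, 857 and 1430 CPM in wild-type tumours 19, 20 and 127 and at 1969, 806, 937 and 822 CPM in tumours 13, 14A, 59 and 61. The groups overlapped, with a log2 fold change of 0.21 (SE 0.46) that was -0.20 without tumour 13. Itgb3, the beta chain of platelet and angiogenic alpha V receptors, stood at 52.1, 20.4 and 12.4 CPM and at 126, 23.7, 125 and 49.3 CPM, in the same order of tumours. Its log2 fold change was 1.54 (SE 0.73, adjusted p = 0.436 in edgeR). Itgb5 was even across tumours, at 325 to 452 CPM in the wild-type and 184 to 386 CPM in the labelled Pak2-null primaries (log2 fold change -0.41, SE 0.31). Itgb8, which with alpha V frees TGF-beta from its latent complex, was at 2.87 to 12.9 CPM in all 7.

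Ratios within a tumour, which do not depend on library scaling, were compared for 6 pairs. The log2 ratio of Itga5 to Itgav per kilobase was 1.08 ± 0.25 (SD, n = 3) in the wild-type and 1.77 ± 0.83 (SD, n = 4) in the labelled Pak2-null tumours (exact two-sided permutation p = 0.229, adjusted p = 0.274). That of Itgb3 to Itgb5 was -4.86 ± 1.25 and -2.94 ± 0.89 (exact permutation p = 0.114, adjusted p = 0.274). Itga6 to Itga3 and Fermt3 to Fermt2 differed by 1.25 and 1.61 (exact permutation p = 0.229 for both). Itgb1 to the other beta chains differed by -0.27 (exact permutation p = 0.914). Tln2 to Tln1 did not overlap between groups and is given with the talins. With 3 against 4 tumours the smallest p this test can give is 0.0571, so no ratio could pass 0.05.

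The 4 chains with the largest differences were lower in every tumour labelled Pak2-null than in every wild-type tumour. Itga7 (ENSMUSG00000025348, chromosome 10, 128933813 to 128958277, plus strand), the laminin receptor chain of skeletal and smooth muscle, stood at 26.2, 182 and 324 CPM in wild-type tumours 19, 20 and 127. It stood at 11.5, 3.34, 7.59 and 17.7 CPM in tumours 13, 14A, 59 and 61. Its log2 fold change was -4.12 (SE 0.88, adjusted p = 0.118 in edgeR), and -3.37 without tumour 127. Wild-type tumour 19 was closer to the labelled Pak2-null tumours than to 20 and 127. Itga11, a collagen receptor chain of fibroblasts, stood at 38.8, 78.8 and 114 CPM and at 8.61, 3.19, 21.05 and 24.2 CPM, in the same order of tumours (log2 fold change -2.42, SE 0.70, adjusted p = 0.184 by the same edgeR test). Each of its wild-type values exceeded each of the others. The fibroblast markers summed to 7125 to 8706 CPM in the wild-type tumours, to 8212 to 11971 CPM in tumours 13, 59 and 61, and to 1086 CPM in 14A. Of these 6 markers, 4 had fold changes above 0 and 2 below, with Dpt at -1.18 on the log2 scale. The part of fibroblasts in the Itga11 values was not tested.

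Itga8 and Itgb6 were at or below 2.31 CPM in every primary tumour labelled Pak2-null. Itga8, the nephronectin receptor chain of mesenchymal and smooth muscle cells, stood at 5.42, 9.87 and 44.1 CPM in wild-type tumours 19, 20 and 127 and at 0.372, 0.771, 1.11 and 2.31 CPM in tumours 13, 14A, 59 and 61. Itgb6, which with alpha V activates TGF-beta in epithelia, stood at 1.99, 14.0 and 15.7 CPM and then at 0, 0.103, 0.123 and 1.04 CPM. The latter are 0, 2, 2 and 18 counts, and the count of 0 in tumour 13 allows up to 0.186 CPM. Itgb6 therefore met the low-count filter through the wild-type tumours, so a difference between the groups was built into its being tested. The log2 fold changes were -4.09 (SE 0.91; -2.73 without tumour 127) for Itga8 and -5.02 (SE 1.34; -6.96 without tumour 61) for Itgb6, with adjusted p = 0.123 and 0.159 in edgeR. Epithelial markers summed to 9.37 to 108 CPM in the wild-type and 3.21 to 598 CPM in the labelled Pak2-null primaries. Their part in the Itgb6 values was not tested.

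Summed muscle markers too were lower in every primary tumour labelled Pak2-null than in every wild-type tumour. All 10 skeletal muscle markers tested, led by Acta1, Ttn and Myh1, were lower without overlap, beside 8.93% of all tested genes. Their sums were 2660, 30048 and 23416 CPM in wild-type tumours 19, 20 and 127 and 12.1, 32.7, 354 and 722 CPM in tumours 13, 14A, 59 and 61, and no marker of the list was at 0 in all primaries. Smooth muscle markers, led by Des, Acta2 and Tagln, summed to 1198 to 4326 CPM and to 182 to 917 CPM. Of these 5, Des, Myh11 and Cnn1 were lower without overlap, beside 8.93% of all tested genes. Acta2 and Tagln overlapped between groups, with log2 fold changes of -1.81 and -0.79 against -4.96 for Des. Without tumours 20 and 127, which leaves wild-type tumour 19 alone and assumes that it varies like the others, the log2 fold changes were -1.34 for Itga7, -2.20 for Itga8, -1.40 for Itga11 and -2.59 for Itgb6. With 1 wild-type tumour left, an unadjusted p under 0.05 was found for none of the 4, for 1 of 33 genes (Itgb8) and for 8.77% of all tested genes. Tumour 19 still held more muscle marker RNA than any tumour labelled Pak2-null, and the part of muscle tissue in these differences was not tested.

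**Figure D4:**
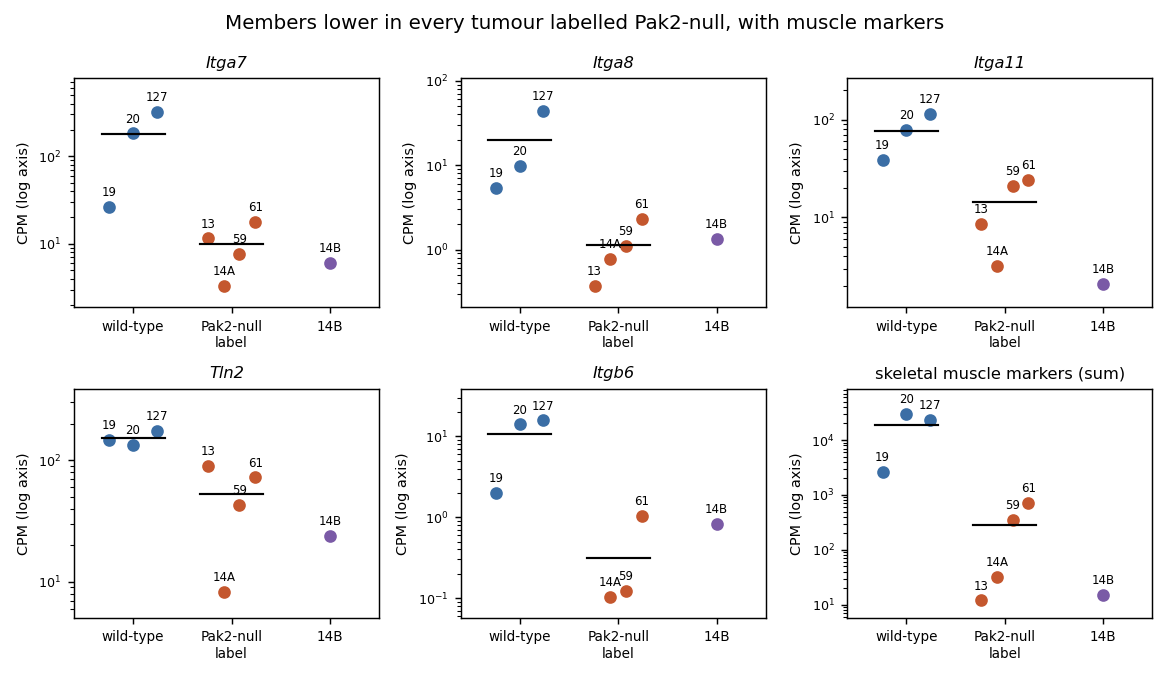
CPM (log axis) of the 5 genes that were lower in every primary tumour labelled Pak2-null, and the summed skeletal muscle markers, by tumour; short lines are group means, and tumour 13, at 0 for Itgb6, is not drawn in that panel. Tumours 20 and 127 are the highest for Itga7, Itga8, Itga11, Itgb6 and the muscle markers, whereas for Tln2 the 3 wild-type tumours lie close together.

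Promoters were searched for the CArG box, the site of serum response factor, which is known to drive muscle and actin-cytoskeleton genes. RefSeq promoters (GRCm38.p6, 250 bases before to 50 after a start) were found for 23 of the 34 genes. On both strands the box occurs in 3 of those 23 (13.0%) and in 1.81% of all 27025 genes with promoters. The 3 are shown because they differ in level: Itgb6 is among the lower chains above, while Vcl and Fermt2 overlapped between groups. Of the other lower chains, Itga8 and Itga11 had promoters without the box, and Itga7 had no promoter to search. The sequences, in capitals where the box lies, are for Itgb6 (chr2:60673644-60673943, minus strand, a start inside the gene's span of 60598292 to 60722643 in the count table), Vcl (chr14:20929148-20929447, plus strand) and Fermt2 (chr14:45530016-45530315, minus strand).
Itgb6: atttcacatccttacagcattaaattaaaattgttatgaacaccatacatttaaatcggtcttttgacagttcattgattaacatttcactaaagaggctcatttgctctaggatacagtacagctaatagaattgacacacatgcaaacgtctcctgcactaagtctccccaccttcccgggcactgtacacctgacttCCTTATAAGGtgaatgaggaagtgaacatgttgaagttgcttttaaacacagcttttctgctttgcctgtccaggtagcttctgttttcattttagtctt
Vcl: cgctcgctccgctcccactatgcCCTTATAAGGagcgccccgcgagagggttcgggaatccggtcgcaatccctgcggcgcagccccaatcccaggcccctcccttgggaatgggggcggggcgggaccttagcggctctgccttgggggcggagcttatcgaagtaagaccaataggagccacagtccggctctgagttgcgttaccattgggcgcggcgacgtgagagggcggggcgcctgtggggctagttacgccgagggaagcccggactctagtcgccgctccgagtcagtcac
Fermt2: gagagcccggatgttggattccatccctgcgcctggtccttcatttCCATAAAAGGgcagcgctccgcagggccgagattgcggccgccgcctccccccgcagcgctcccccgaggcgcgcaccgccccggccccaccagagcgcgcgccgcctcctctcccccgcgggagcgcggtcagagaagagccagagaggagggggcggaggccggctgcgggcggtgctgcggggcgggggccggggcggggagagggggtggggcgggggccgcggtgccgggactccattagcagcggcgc
The box starts at offset -50 from the start site in Itgb6, -227 in Vcl and -204 in Fermt2. A match is a description of the sequence only.

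The other laminin and collagen receptor chains were mixed. Itga6, the alpha chain of laminin receptors with beta 1 or beta 4, stood at 75.1, 58.8 and 47.1 CPM in wild-type tumours 19, 20 and 127 and at 236, 54.7, 175 and 127 CPM in tumours 13, 14A, 59 and 61. All but 14A were above the wild-type tumours, and the log2 fold change was 1.32 (SE 0.49, adjusted p = 0.314 in edgeR). Its epithelial partner Itgb4, which forms hemidesmosomes, was high in tumours 59 and 61 alone, at 69.1 and 79.5 CPM against 8.94 to 29.6 CPM in the other 5. Itga3, a laminin receptor chain of epithelia, was also highest in those 2 tumours, at 76.9 and 65.4 CPM, and lowest in 14A, at 6.63 CPM. Epithelial markers summed to 3.21 CPM in tumour 59 and to 598 CPM in tumour 61, and their part in these values was not tested. Of the collagen receptor chains, Itga1 ranged from 8.73 to 59.1 CPM, Itga2 from 2.36 to 8.08 CPM and Itga10 from 1.25 to 5.45 CPM over the 7 primaries, and each overlapped between groups. So did Itga9, a tenascin and VCAM-1 receptor chain (44.6 to 193 CPM), and Itga2b, the platelet fibrinogen receptor chain (4.11 to 10.1 CPM).

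Among the primary tumours, the integrin chains of leukocytes were highest in 14A, by a wide margin for some and a narrow one for others. Itgb2, the common beta chain of the leukocyte integrins (ENSMUSG00000000290, chromosome 10, 77530252 to 77565708, plus strand), stood at 178, 98.7 and 94.2 CPM in wild-type tumours 19, 20 and 127. In tumours 13, 59 and 61 it stood at 58.6, 111 and 57.0 CPM, and in 14A at 1885 CPM, 10.6 times the next primary tumour. Itgam, the alpha M chain of macrophages and neutrophils, stood at 152, 81.4 and 53.0 CPM in the wild-type tumours, at 121, 130 and 82.2 CPM in tumours 13, 59 and 61, and at 1026 CPM in 14A. Itgal, the alpha L chain of lymphocytes, reached 146 CPM in 14A and 6.01 to 53.9 CPM elsewhere. For all 7 leukocyte chains (Itga4, Itgae, Itgal, Itgam, Itgax, Itgb2 and Itgb7) 14A was the highest primary tumour, by 1.08 times the next for Itgae to 10.6 times for Itgb2.

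With 14A included, the log2 fold change was 2.11 (SE 1.38) for Itgb2 and 1.85 (SE 1.002) for Itgam, and without it these were -0.69 and 0.24. Itga4, a VCAM-1 and fibronectin receptor chain, likewise went from 0.64 to -0.12. Of the 7 chains 6 had a fold change above 0, as had 54.5% of all tested genes. An unadjusted p under 0.05 was found for 0 of 7, beside 12.9% of all tested genes. Groups did not overlap for 0 of 7, beside 14.0%. Itgb7, the beta chain of gut-homing lymphocytes, was high in 59 and 61 as well as 14A (66.2, 53.9 and 92.6 CPM) and lowest in tumour 13 (7.93 CPM), against 11.4 to 26.6 CPM in the wild-type tumours. The 5 leukocyte markers summed to 446 to 836 CPM in the wild-type tumours and to 701, 5026, 871 and 525 CPM in tumours 13, 14A, 59 and 61. Macrophage markers, led by C1qb, C1qa and C1qc, summed to 8625 CPM in 14A and 1208 to 3437 CPM in the other primaries, and B cell markers to 477 CPM and 2.54 to 112 CPM. The share of leukocytes in these differences was not tested.

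**Figure D5:**
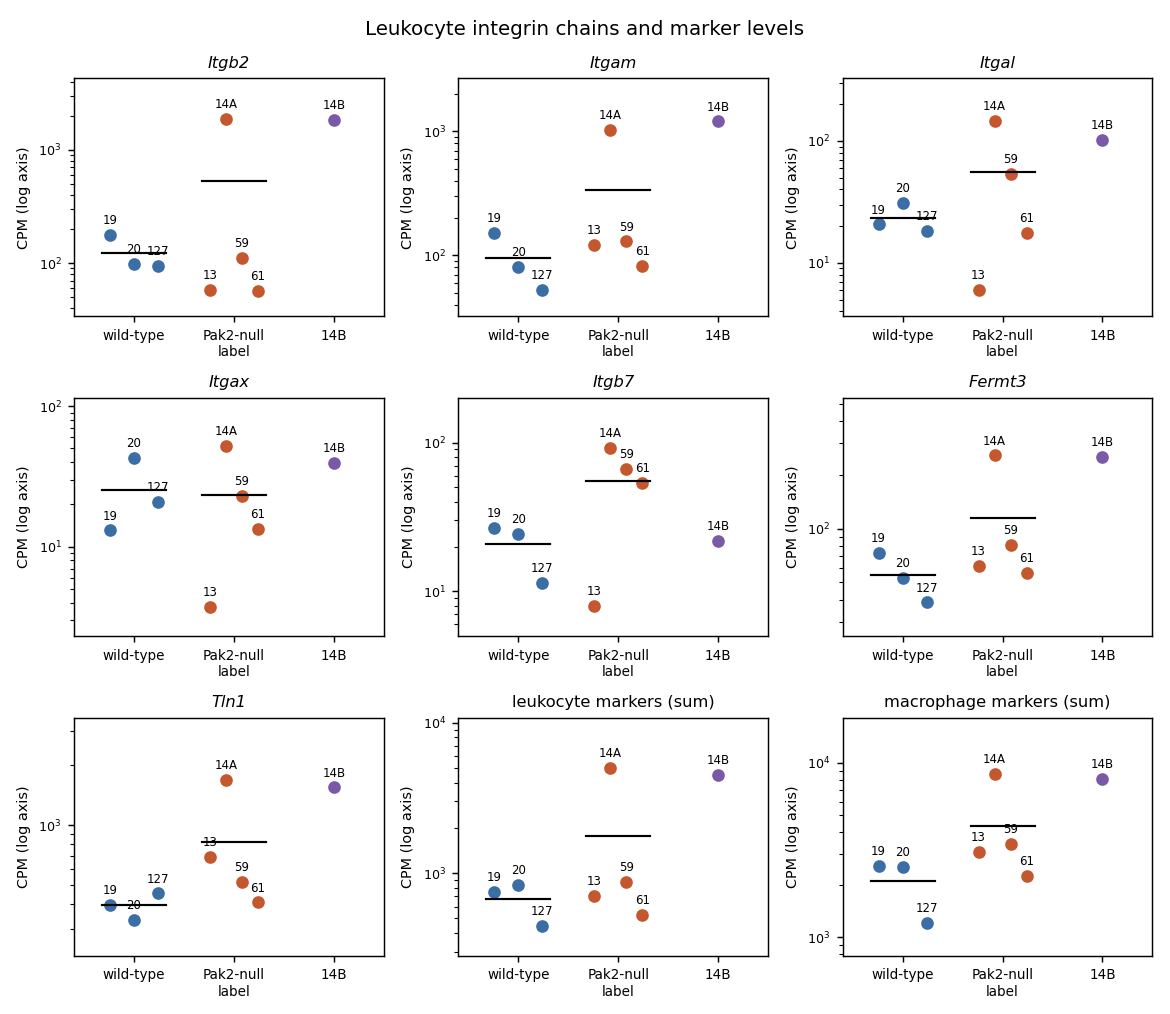
CPM (log axis) by tumour of 5 leukocyte integrin chains, Fermt3 and Tln1, with the summed leukocyte and macrophage markers; short lines are group means. In all 9 panels tumour 14A is the highest primary tumour, and 14B too lies above the other 6 primary tumours except for Itgax and Itgb7.

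The Itgam promoter is shown because Itgam is one of the chains that were high in both 14A and 14B. The letters GAGGAA, the core bound by PU.1, an ETS factor of myeloid cells, were searched on both strands and are in capitals (chr7:128062390-128062689, GRCm38.p6, plus strand).
Itgam: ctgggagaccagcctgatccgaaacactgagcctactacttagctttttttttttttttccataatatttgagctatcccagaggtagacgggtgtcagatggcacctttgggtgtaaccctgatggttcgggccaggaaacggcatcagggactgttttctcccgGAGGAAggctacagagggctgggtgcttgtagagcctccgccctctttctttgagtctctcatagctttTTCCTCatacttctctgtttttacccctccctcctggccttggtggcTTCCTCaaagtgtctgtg
It holds 3 matches, which do not overlap. At least 1 match lies in the promoters of 10 of 23 genes (43.5%) and of 31.3% of all genes, and among the leukocyte chains in Itgam and Itgb7, of the 4 that had a promoter in the table.

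Talins and kindlins, which activate integrins from inside the cell, differed by isoform. Tln1, the talin of most cells and of blood cells, stood at 395, 332 and 451 CPM in wild-type tumours 19, 20 and 127 and at 692, 1685, 516 and 407 CPM in tumours 13, 14A, 59 and 61 (log2 fold change 1.09, SE 0.54, and 0.48 without 14A). Tln2, the talin most abundant in muscle and brain, was lower in all 4, at 147, 134 and 173 CPM and then at 89.3, 8.27, 42.6 and 72.3 CPM. Its log2 fold change was -1.49 (SE 0.67, adjusted p = 0.408 in edgeR) and -1.13 without 14A. The log2 ratio of Tln2 to Tln1 per kilobase was -1.95, -1.83 and -1.90 in the wild-type tumours and -3.47, -8.00, -4.09 and -3.00 in tumours 13, 14A, 59 and 61. The exact permutation p was 0.0571, the smallest possible, and 0.274 adjusted over the 6 ratios.

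Fermt2, the kindlin of mesenchymal and muscle cells, stood at 106 to 180 CPM in the wild-type tumours and at 165, 20.6, 112 and 129 CPM in tumours 13, 14A, 59 and 61. Fermt3, the kindlin of blood cells, stood at 38.6 to 72.7 CPM and at 61.7, 257, 81.1 and 56.3 CPM. Tumour 14A was thus the highest for Tln1 and Fermt3 and the lowest for Tln2 and Fermt2. In 14B, the levels were 1549 CPM for Tln1, 253 for Fermt3, 24.1 for Tln2 and 41.2 for Fermt2.

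The core proteins of focal adhesions overlapped between groups. Ptk2, which encodes focal adhesion kinase, stood at 73.1, 66.0 and 82.9 CPM in wild-type tumours 19, 20 and 127 and at 110, 23.0, 107 and 88.1 CPM in tumours 13, 14A, 59 and 61 (log2 fold change 0.18, SE 0.50). Without 14A, Ptk2 was higher in all 3 remaining tumours, with a log2 fold change of 0.48. Pxn, which encodes the adaptor paxillin, stood at 169, 150 and 199 CPM and at 274, 449, 288 and 166 CPM (log2 fold change 0.79, SE 0.36). Vcl, which encodes vinculin, the link from talin to actin, stood at 86.1, 118 and 204 CPM and at 208, 47.3, 116 and 158 CPM (log2 fold change -0.01, SE 0.52). The adjusted p values were 0.909, 0.421 and 0.996 in edgeR.

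Ilk, which encodes integrin-linked kinase, was listed at 0, 4 and 3 counts in wild-type tumours 19, 20 and 127, at 8, 0, 3 and 3 counts in tumours 13, 14A, 59 and 61, and at 0 in 14B. In GENCODE M21, 89.7% of its exonic bases also belong to exons of the opposite-strand genes Rrp8 and Taf10, which had 247 to 724 and 973 to 3012 counts. The strand setting of the counting is not given in the sources used here, so whether these counts measure the level of Ilk is not known. Of the other 33 genes, only Vcl shares more than 10% of its exonic bases with another gene (25.5%, with Ap3m1 on the opposite strand). Processed pseudogenes at least 95% identical over 200 bases or more were found for Itga6, Itgb2 and Itgb5. Each is a fragment of at most 343 aligned bases.

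Other genes of the pathway, grouped in 8 lists, held no gene that passed the same test either. Among 11 laminin chains, 7 fold changes were below 0 and their median was -1.20 on the log2 scale. An unadjusted p under 0.05 was found for 4 of them, all lower (Lama3, Lama5, Lamb3 and Lamc3), beside 8.55% of all tested genes that were lower by this measure. Lama5, of epithelial basement membranes, stood at 71.2 ± 18.7 (SD, n = 3) and 27.3 ± 10.6 CPM (SD, n = 4), and Lamb3, of the epidermal laminin that Itga6 and Itgb4 bind, at 20.7 ± 12.6 and 1.84 ± 1.67 CPM. Neither overlapped between groups. Lamc3 stood at 28.8 ± 48.7 and 0.554 ± 0.809 CPM, with a log2 fold change of -5.68 that was -0.26 without wild-type tumour 19. Of RGD and other matrix ligands, 1 of 15 had an unadjusted p under 0.05, beside 12.9% of all tested genes. This was Emilin1, an elastic fibre protein that binds alpha 4 beta 1 (222 ± 40.0 and 111 ± 37.8 CPM). Groups did not overlap for 3 of the 15, all lower, beside 8.93% of all tested genes. Npnt, which encodes nephronectin, the ligand of alpha 8 beta 1, stood at 163 ± 171 and 34.6 ± 24.7 CPM, and its log2 fold change of -2.22 was -0.90 without tumour 127. Nid1, of basement membranes, stood at 385 ± 58.0 and 1196 ± 953 CPM, and its log2 fold change of 1.66 was 1.06 without tumour 13.

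Of the latent TGF-beta list 1 of 8 had an unadjusted p under 0.05, beside 12.9% of all tested genes. This was Tgfb2, whose latent form lacks the RGD motif read by alpha V integrins. Tgfb2 stood at 58.3 ± 44.8 (SD, n = 3) and 10.4 ± 5.84 CPM (SD, n = 4). Its log2 fold change was -2.47, and -1.70 without tumour 127. Tgfb1 and Tgfb3, whose latent forms carry that motif, stood at 149 ± 24.6 and 348 ± 195 CPM in the wild-type and 264 ± 113 and 109 ± 77.6 CPM in the labelled Pak2-null tumours. Among cell surface counter-receptors 0 of 8 did. The lowest p values there belonged to Jam3, Madcam1 and Vcam1, the last of which binds alpha 4 beta 1, with log2 fold changes of -0.86, 2.56 (4.37 without tumour 19) and 0.46. Of integrin membrane partners 2 of 11 did, both higher, beside 4.39% of all tested genes that were higher by this measure. These were Plaur, the urokinase receptor (25.2 ± 13.3 and 63.9 ± 27.3 CPM), and Cd47, a thrombospondin receptor (170 ± 26.9 and 340 ± 165 CPM). Cd82, a tetraspanin, had a log2 fold change of -1.09.

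Actin linkers and scaffolds had 2 higher and 3 lower genes at an unadjusted p under 0.05, of 29, where the background was 4.39% higher and 8.55% lower. The higher ones were Flna, the actin crosslinker filamin A, and Lpp, a LIM protein, with log2 fold changes of 1.01 and 0.87. Among the lower ones were Lims2, a PINCH partner of integrin-linked kinase, and Svil, the actin-binding supervillin. Their log2 fold changes were -1.85 and -1.13, and neither overlapped between groups. Adhesion signalling genes had 19 of 22 fold changes above 0 (54.5% of all tested genes), with a median of 0.49 on the log2 scale. An unadjusted p under 0.05 was found for 2 of 22, beside 12.9% of all tested genes. These were Apbb1ip, the Rap1 effector that brings talin to integrins (45.1 ± 9.11 (SD, n = 3) and 124 ± 87.9 CPM (SD, n = 4)), and Ptk2b, the relative of focal adhesion kinase (46.7 ± 2.82 and 179 ± 196 CPM). Rac1 had a log2 fold change of 0.65. Apbb1ip, Ptk2b and Rac1 were the 3 of 22 whose groups did not overlap, all higher, beside 5.07% of all tested genes. Both Apbb1ip and Ptk2b are also expressed by leukocytes, whose markers were high in 14A. Without that tumour their log2 fold changes went from 1.48 to 0.86 and from 1.96 to 0.85. The part of leukocytes in these values was not tested. Of integrin inactivators and turnover genes, Dok1, an adaptor that competes with talin for beta tails, stood at 44.0 ± 7.52 and 133 ± 54.0 CPM. Kank1, which binds talin at the rim of adhesions, stood at 55.5 ± 31.0 and 18.4 ± 6.90 CPM, and Kank4 had a log2 fold change of -1.36, which was -0.71 without tumour 19. These 2 with non-overlapping groups, Dok1 and Kank1, were the only ones of 10 with an unadjusted p under 0.05. Of all tested genes, 14.0% did not overlap and 12.9% had such a p.

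The secondary tumour 14B, a single sample with no test, lay within the range of the 4 primary tumours of its genotype for 28 of 33 genes. It was above them for Itgam (1205 CPM) and Pxn (490 CPM) and below them for Itga10 (1.04 CPM), Itga11 (2.07 CPM) and Itga2b (4.25 CPM). Compared with 14A, 6 of 33 genes differed by more than 1 on the log2 scale (18.2%, beside 16.0% of all tested genes). Fn1, Tln2 and Itga3 were higher in 14B by 2.06, 1.53 and 1.18, and Itgb6 by 2.09, which rests on 8 against 2 counts. Itgb7 and Itgae were lower by a log2 difference of -2.08 and -1.20. The chains Itgb2 and Itgal differed by -0.03 and -0.53. Exocrine pancreas markers, led by Ctrb1, summed to 158863 CPM in 14B, to 21209 CPM in 14A and to at most 49.7 CPM in the other tumours, and their part in these values was not tested.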

How the data were processed

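RNA of 8 mouse tumours was sequenced after mRNA enrichment, fragmentation and PCR, per the labels' protocols. The authors deposited whole-number read counts per gene, 1 column per tumour, not pooled and not normalised. STAR and HTSeq are named with the builds GRCm38 and mm10, per the submitters' processing notes. The sources used here give no versions, annotation release or strand setting. The deposited table also gives a gene length.

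Counts of the 3 wild-type and 4 labelled Pak2-null primary tumours entered a quasi-likelihood test (edgeR 4.0.16, R 4.3.3; TMM factors; filterByExpr with minimum count 10 and minimum total 15, leaving 15412 of 35275 genes). Its p-values were adjusted by Benjamini and Hochberg's method and called at 0.05. No batch is labelled. Tumour 14B was described only. The SE is the log2 fold change over the square root of F. Log2 CPM used a prior count of 2, and ratios a pseudocount of 0.1 CPM per kb. The fit was also run on simulated data, and the outcome is not given here. Alternatives used limma 3.58.1 and DESeq2 1.42.0, other scalings and filters, and each tumour left out. Copies were sought with BLAST 2.17.0 (megablast).

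The members and gene lists were chosen with earlier results of these data known. Named are all members, with every tumour's value where the unadjusted p was under 0.05, the groups did not overlap or the gene is Fn1, Itgb1, Itgav, Itga5, Itgb2, Tln1, Ptk2, Vcl, Ilk or Pxn, and the 3 lowest p values of each pathway list, of which 1 gene is not reported here. The CArG, PU.1 and TEAD motifs were chosen after the values were seen, as were Lama3, Flna, Lpp and the further members given by tumour. TEAD's core GGAATG lies in 3 of 23 member promoters (13.0%) and in 16.6% of all genes. Of the listed names, 1 was not found. No 2 libraries were copies of each other.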

Additional observations from a re-analysis of the deposited data

Results flagged for a closer look

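In the 4 primary tumours labelled Pak2-null, 2 of the 33 genes had 1 tumour far from the other 3 on the log2 scale. Chance alone flags about 1 in 20 such groups. Itgb1 in tumour 13 stood at 1969 CPM against 937 CPM in the next, a gap of 0.831 of the group's whole range. Ptk2 in tumour 14A stood at 23.0 CPM against 88.1 CPM in the next, a gap of 0.856 of the range.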

How the results depend on the processing

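No paired analysis was possible because the wild-type and labelled Pak2-null tumours share no replicate number. The 7 genes with an unadjusted p under 0.05 kept their direction under every alternative, which for the 5 with groups that do not overlap was nearly fixed in advance. Over all genes, 11 calls became 20 with a filter of 1 CPM in 3 tumours, 4 with all 8 tumours in the fit, 0 without tumours 20 and 127, 25 with limma-voom and 1149 with DESeq2, and 0 to 59 with 1 tumour left out (59 without tumour 19, 0 without 20, 13, 59 or 61). Among the 33 genes, 0 calls became 5 with DESeq2 alone. DESeq2 gave no p for Itgb2 and Itgam. The 7 with an unadjusted p under 0.05 became 12 with DESeq2 and 4 to 11 with 1 tumour left out. Over all genes DESeq2 had 2624, or 17.6% of those it gave a p. There were 4 without 20 or 127, at 9.28 and 8.62% of all genes, and 11 without 14A, at 16.9%. The 6 with non-overlapping groups became 6 to 12 with 1 tumour left out (12 without 19 and 10 without 14A). The background then rose to 29.4% without 19 and 23.2% without 14A. Without 14A the higher ones were Fn1, Itga5, Itga6, Itgav and Ptk2. With 1 tumour left out, log2 fold changes ran across 0 for Itgb1 (-0.20 without 13 and -0.0074 without 19, to 0.55), Itgb2 (-0.69 without 14A, to 2.49), Ptk2 (-0.0061 without 13 and -0.00087 without 59, to 0.48) and Vcl (-0.33 to 0.38, above 0 without 127, without 14A at 0.27 and without 59 at 0.024). So did Itga2 (0.18; -0.17 without 20 and -0.047 without 59), Itga3 (0.29; -0.020 without 20 and -0.15 without 59), Itga2b (0.20; -0.12 without 127), Itga4 (0.64; -0.12 without 14A), Itga9 (-0.08; 0.17 without 19 or 61, 0.078 without 127) and Itgax (-0.12; 0.47, 0.24 and 0.074 without 20, 13 and 61). The log2 ratio of Itgb1 to other beta chains ran from -0.74 to 0.38, the latter without 14A. Ptk2 was at -0.050 with limma-voom, and without 20 and 127 Vcl was at 0.67 and Cd82 at 0.096. The cause was not tested, beyond fewer samples. Leaving Fn1 out of the library size, added after its share of tumour 13 was seen, changed no count. Depth limits Itgb6, Itga8 and Itga10, which had at most 18, 40 and 44 counts in the tumours labelled Pak2-null.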

Other observations

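Leukocyte integrin chains did not keep a fixed proportion to leukocyte markers. Per 1000 CPM of the 5 leukocyte markers, Itgb2 stood at 237, 118 and 211 CPM in wild-type tumours 19, 20 and 127, at 83.5, 128 and 108 CPM in tumours 13, 59 and 61, and at 375 and 408 CPM in 14A and 14B. Itgam was steadier, at 97.3 to 204 CPM over the 7 primary tumours, a 2.10-fold range where its own level had a 19.4-fold range. Fermt3 likewise had a 2.10-fold range per marker level against 6.66-fold for its level. The lymphocyte chain Itgb7 per marker level was highest in tumours 61 and 59, at 103 and 76.0 CPM, and lowest among primaries in tumour 13, at 11.3 CPM. Itgax, the alpha X chain of dendritic cells and macrophages, was highest on this scale in wild-type tumours 20 and 127, at 51.1 and 46.5 CPM.

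Itga7 did not follow skeletal muscle markers in proportion. Per 1000 CPM of those markers it stood at 9.87, 6.05 and 13.8 CPM in the wild-type tumours, at 21.4 and 24.6 CPM in tumours 59 and 61, and at 954 and 102 CPM in tumours 13 and 14A, where those markers were near their lowest. Per 1000 CPM of smooth muscle markers it ranged from 18.4 to 42.0 CPM in 6 of the 7 primary tumours and reached 96.1 CPM in tumour 127. The platelet chain Itga2b was even, with a 2.45-fold range, whereas the platelet and megakaryocyte markers, led by Pf4, summed to 8.89 CPM in 14A and 161 CPM in tumour 19.

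Other marker sums, wild-type and then labelled Pak2-null primaries, were as follows. T cell markers (Cd4, Cd8a and Cd3g leading) summed to 19.6 to 42.3 and 2.54 to 221 CPM, and NK cell markers (Eomes, Klrk1 and Klrb1c) to 2.41 to 7.57 and 4.83 to 34.5 CPM. Dendritic cell markers (Zbtb46, Ccr7 and Flt3) summed to 21.4 to 33.3 and 20.9 to 85.4 CPM, and neutrophil markers (Csf3r, S100a9 and S100a8) to 25.1 to 133 and 18.8 to 258 CPM. Endothelial markers (Pecam1, Cdh5 and Kdr) summed to 286 to 730.5 and 225 to 589 CPM. Adipocyte markers (Fabp4, Adipoq and Cidec) summed to 116 to 777 and 26.4 to 174 CPM. Early response genes of tissue handling (Junb, Jun and Egr1 leading) summed to 407 to 484 and 444 to 979.6 CPM, with tumour 14A the highest.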
